A study of Homo sapiens with 8 samples.

Results

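The genes described here are 10 members of the Notch pathway, namely the receptors NOTCH1, NOTCH2 and NOTCH3, the ligands JAG1, JAG2 and DLL1, and the targets HES1, HES4, HEY1 and NRARP. They were found by matching gene identifiers to GENCODE symbols, and all 10 are among the 43869 genes with values. RNA levels and the histone mark H3K27ac, which marks active promoters and enhancers, were available for 4 lines of H3122, an established lung cancer cell line driven by the EML4-ALK fusion. The treatment-naive line was compared with its derivatives erCriz0, erAlec0 and erLor0, which had been selected for resistance to an ALK inhibitor under rising concentrations and were then kept in crizotinib (0.5 μM), alectinib (2 μM) or lorlatinib (2 μM), respectively. All 4 were grown in RPMI with 10% serum. The labels give 0.1% DMSO as the treatment, and RNA was isolated 48 h after inhibitor withdrawal. Each line gave 1 library of each kind, so the differences below have no replicate check and come without p-values. The 3 resistant lines were all compared with the same naive library. The remaining 4 samples of the series, including erCriz1 and erLor1, were not analysed here.

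Notch receptors are single-pass membrane proteins that bind ligands of the Jagged and Delta-like families on neighbouring cells. Ligand binding exposes the receptor to cleavage by ADAM proteases and then by γ-secretase, and the released intracellular domain enters the nucleus, where it binds the DNA-binding protein RBPJ together with a Mastermind-like coactivator. Among the genes switched on in many tissues are HES and HEY family members, which encode transcriptional repressors, and NRARP, which encodes a feedback inhibitor. In the airway the pathway is known for its part in the choice between secretory and ciliated cell fates.

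RBPJ recognises the letters TGGGAA, and the promoters of the HES genes are textbook examples of its binding. Of the 10 members, 8 matched an entry in the RefSeq promoter table of GRCh38.p14, which holds 250 bases before to 50 after a gene's start, and DLL1 and HEY1 did not. Both strands were searched. Only HES1, with 2 matches, and HES4, with 1 match, held TGGGAA among these 8, a share like that of all 35116 promoters, of which 24.0% held it and 3.80% held it at least 2 times. The stretches that hold the matches are shown because HES1 and HES4 are compared below and share a run of bases there. They are written on the strand of each gene, with TGGGAA in capitals, together with the preceding G where the longer form GTGGGAA was found.
HES1, chr3:194136028-194136127, plus strand: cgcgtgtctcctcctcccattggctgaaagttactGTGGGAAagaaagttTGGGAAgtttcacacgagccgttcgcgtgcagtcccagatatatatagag
HES4, chr1:1000118-1000217, minus strand: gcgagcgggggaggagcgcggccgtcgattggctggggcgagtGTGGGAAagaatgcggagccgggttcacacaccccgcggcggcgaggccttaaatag
The TGGGAA matches begin 84 and 70 bases before the RefSeq start of HES1 and 76 bases before that of HES4. GTGGGAA, which contains TGGGAA, was found in 6.25% of all promoters. Both genes carry the same run of 12 bases, tgtgggaaagaa, which begins 86 bases before the start of HES1 and 78 bases before that of HES4. The N-box CACNAG, the sequence bound by HES repressors, had 4 matches in HES1, 2 in NOTCH1 that overlap on opposite strands, and 1 each in NOTCH2, NOTCH3 and NRARP, while 38.0% of all promoters held at least 1. A match of letters is not evidence of binding.

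Expression of the pathway was broad but uneven. RNA levels are given as rlog values, a log2 scale on which a difference of 1 corresponds to 2-fold, and all 10 members reached 4.64, the log2 of the 25-read minimum in the study's methods, as did 12701 of all genes. Compared with naive cells, NOTCH2 RNA rose in erLor0 and erCriz0 and NOTCH3 RNA rose in erAlec0 and erLor0, where "rose" and "fell" mean a change of at least 1 in size, the limit in the methods. No other member passed that limit, and no member fell. The NOTCH2 change in erCriz0 lay just past the limit and fell short of it, at 0.92, after quantile normalization. Thus 1 of 10 members rose in erCriz0, 1 in erAlec0 and 2 in erLor0, whereas 2.65%, 2.46% and 1.10% of all expressed genes rose in these lines and 1.65%, 2.07% and 0.740% fell. The median change over the 10 members came to 0.06 for erCriz0, 0.31 for erAlec0 and 0.30 for erLor0, against -0.02, 0.00 and -0.00 over all expressed genes. RNA of 6 members was higher than in naive cells in all 3 resistant lines, and RNA of JAG2 alone was lower in all 3. Of all expressed genes 22.5% were higher and 24.5% lower in all 3.

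**Figure D1:**
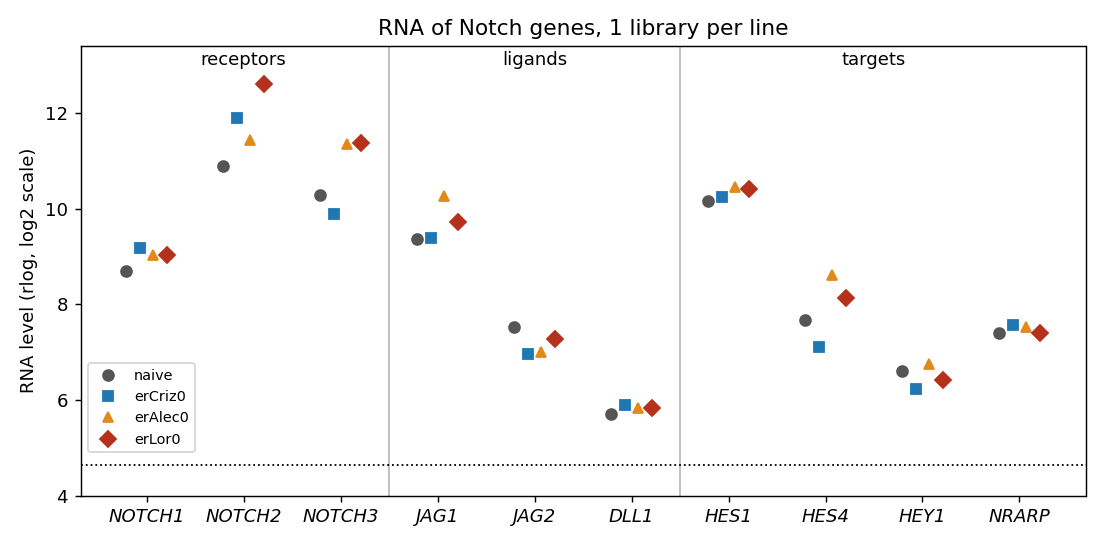
RNA level (rlog, log2 scale) of the 10 genes in naive, erCriz0, erAlec0 and erLor0 cells, with 1 library per line as 1 symbol and no error bar; the dotted line marks 4.64, the minimum for an expressed gene. NOTCH2 runs from 10.89 in naive cells to 12.60 in erLor0, NOTCH3 and HES4 lie lowest in erCriz0, and DLL1 and NRARP hardly vary.

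Levels of different genes can be compared only per length, so the log2 of the length of each gene's exons in kb was subtracted from its rlog. On this per-kb scale HES1 had the highest level in naive cells, 9.11, followed by HES4 at 7.50, NOTCH3 at 7.04 and NOTCH2 at 6.82. JAG1 was the most abundant ligand per kb, at 6.14, NRARP stood at 6.00 and NOTCH1 was the least abundant receptor, at 5.04. JAG2 at 4.85 and DLL1 at 3.76 were lower. HEY1 came to 4.14, but its GENCODE exons, 5.487 kb in all, exceed the span of the gene in the deposited values (chr8:79764010-79767857). Its value is therefore too low, so HEY1 stands above DLL1 but its rank is otherwise not known. NOTCH2 exceeded NOTCH3 per kb in erCriz0, at 7.83 against 6.65, and in erLor0, at 8.53 against 8.15. In erAlec0 NOTCH2 stayed below NOTCH3, at 7.38 against 8.11. Without replicates the spread around these levels is not known.

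The data match the labelled cell type only in part. Of 11 markers of lung adenocarcinoma and epithelium, 8 were expressed, with the lineage factor NKX2-1 at 8.68 and the keratin KRT18 at 14.66 in naive cells, whereas NAPSA and SFTPB were below the minimum and SFTPC was at 0 in all 4 libraries. Of 4 club, ciliated and goblet cell markers with values, 2 were expressed. They were the goblet cell mucin MUC5AC, at 12.80 to 13.52, and SPDEF, whereas FOXJ1 was below the minimum and SCGB3A2 was at 0. Of the basal markers TP63 passed the minimum in erAlec0 alone, at 5.21, and KRT5 did not pass it. None of the neuroendocrine and blood markers with values was expressed. The summed level of 4 fibroblast markers ranged from 9.51 to 10.09 and rested on COL1A1. That of 4 endothelial markers ranged from 6.01 in erCriz0 to 7.50 in erLor0. CDH5 was at 4.10 for naive, 4.28 for erCriz0, 5.78 for erAlec0 and 5.64 for erLor0 cells. KDR was at 6.58, 5.43, 6.02 and 7.01 in the same order, while PECAM1 and VWF stayed between -0.13 and 0.19. CDH5 therefore rose in erAlec0 and erLor0, by 1.68 and 1.54, and these are the lines in which NOTCH3 rose. In erCriz0 CDH5 was higher than in naive cells by 0.18, and both of these levels were below the minimum. KDR was lower than in naive cells in erAlec0 and higher in erLor0. In bulk libraries, fewer cells that express a gene and less RNA per cell cannot be told apart.

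NOTCH2, one of the 4 mammalian Notch receptors, showed the largest RNA change of the 10 genes. It lies on the minus strand of chromosome 1 (ENSG00000134250.20, chr1:119911553-120100779 in hg38). Its RNA level was 10.89 for naive cells, 11.90 for erCriz0, 11.44 for erAlec0 and 12.60 for erLor0. All 3 resistant lines were therefore above naive cells, by 1.01, 0.56 and 1.71, or 2.02-fold, 1.47-fold and 3.28-fold. In erLor0 this was the rise of rank 14 among all 12701 expressed genes.

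In erLor0 the stretch of chromosome 1 around NOTCH2 rose with it. RNA of the other 34 expressed genes within 5 Mb changed by a median of 1.15 in erLor0, compared with 0.09 in erCriz0 and -0.09 in erAlec0. Of the 35 genes with NOTCH2 included, 20 rose in erLor0 and none fell, and NOTCH2 ranked 2, below a gene with a change of 1.86. Relative to its neighbours NOTCH2 RNA was higher by 0.93 for erCriz0, 0.65 for erAlec0 and 0.56 for erLor0. Which line was highest depended on the window, with 0.82, 0.62 and 0.85 against neighbours within 2 Mb and 0.90, 0.65 and 1.06 within 10 Mb. The ChIP values are read counts over peaks and no subtraction of input DNA is stated for them, so extra DNA copies and a higher mark per copy cannot be told apart.

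H3K27ac around NOTCH2 showed the same regional shift. The gene, the longest of the 10, was paired with 46 peaks lying within 20 kb of it. These were 27.9% of the 165 peaks paired with the 10 members. In erLor0 31 of these 46 peaks rose and none fell, in erCriz0 2 rose and in erAlec0 1 rose. Over all 126470 peaks, 7.00% rose and 5.94% fell in erCriz0, 14.1% rose and 9.41% fell in erAlec0, and 7.45% rose and 8.82% fell in erLor0. The NOTCH2 peaks had a median change of 0.02 with erCriz0, 0.00 with erAlec0 and 1.34 with erLor0. The other 770 peaks within 5 Mb had medians of 0.00, 0.00 and 1.39, so that the NOTCH2 peaks as a group differed from their surroundings by -0.05 in erLor0. This difference turned positive with windows of 2 Mb (0.22) and 10 Mb (0.063). Only 16 of the 46 passed 3.91, the log2 of the 15-read minimum for peaks in the methods. Of these 16, 6 passed it in erLor0 alone.

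**Figure D2:**
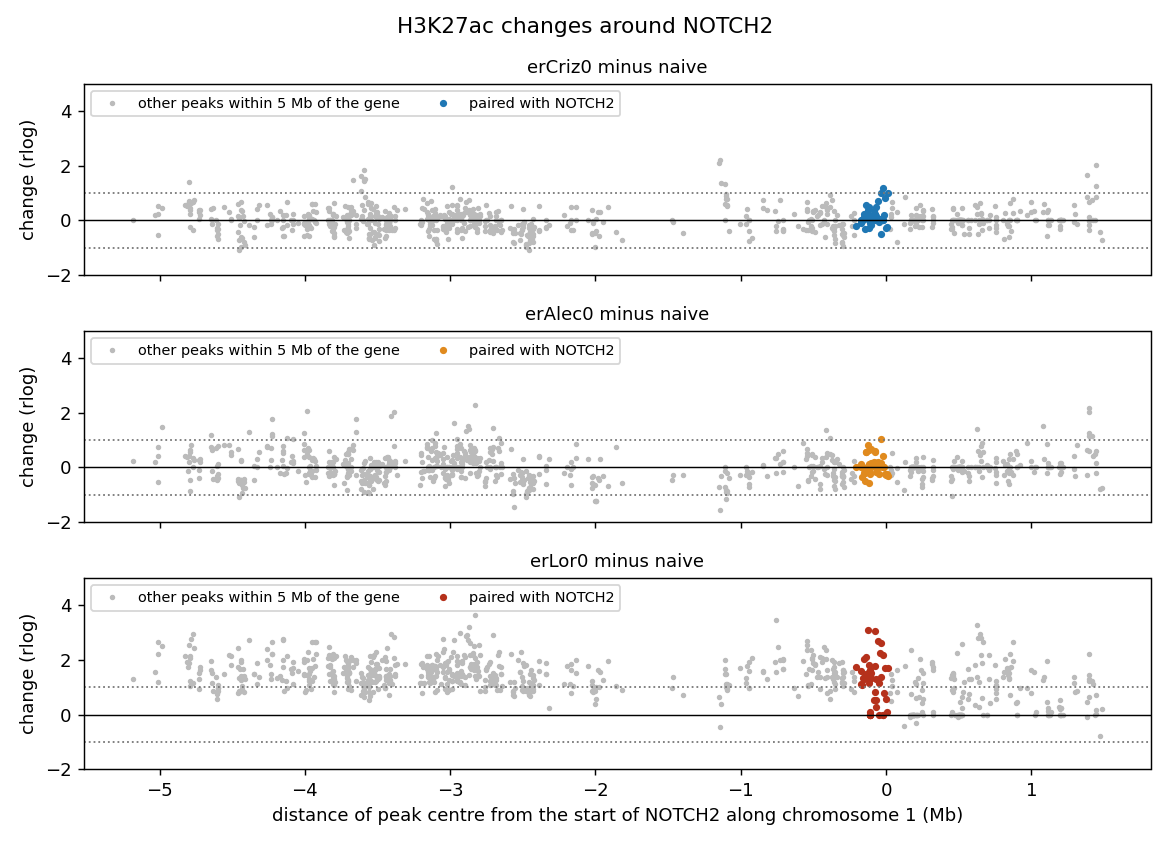
H3K27ac change from naive cells (rlog) of every peak within 5 Mb of NOTCH2, by distance of the peak centre from the start of the gene in Mb, for erCriz0, erAlec0 and erLor0; coloured points are the 46 peaks paired with NOTCH2, grey points the other peaks, and dotted lines mark changes of 1 and -1. In erLor0 most points between -5 Mb and 0 lie above 1, both inside and outside NOTCH2, whereas those of erCriz0 and erAlec0 scatter around 0.

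In bins of 1 Mb along the chromosome, the median peak change in erLor0 was 0.04 at 9 to 10 Mb below the start of NOTCH2 and 0.66 at 7 to 8 Mb. It lay between 1.03 and 1.52 in the 7 bins from there to the gene. Above the start it was 0.75 over the next Mb and 0.24 at 1 to 2 Mb, and no peaks were present between 2 and 10 Mb. Of the peaks of NOTCH2 itself, 7 were at 0 in all 4 libraries, all of them in introns between positions 119990281 and 120081230, and their changes were therefore 0 in every line. NOTCH2 has near-identical paralogs, the NOTCH2NL genes on the same chromosome, and reads that cannot be placed uniquely were removed by the authors. Of the 4 paralogs only NOTCH2NLC was expressed, at 5.42 in naive and 5.50 in erLor0 cells, a change of 0.08.

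The peak of the gene with the largest rise covers exons and introns in the gene body (chr1:119966423-119981831, 15409 bp). Its H3K27ac level was 8.06 for naive cells, 8.46 for erCriz0, 8.89 for erAlec0 and 11.16 for erLor0, so that erLor0 stood apart from the other 3 lines. The change of 3.10 in erLor0 ranked 6 among all 126470 peaks and 5 among the 816 within 5 Mb. The 5 NOTCH2 peaks of at least 5 kb had a median change of 2.25 in erLor0, against 2.06 for 46 other peaks of that length within 5 Mb, and of 0.70 against 0.18 in erCriz0.

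Of 4 NOTCH2 peaks over a transcript start, 3 rose in erLor0 and the weakest, with a change of 0.54, did not. At the start of the whole gene in GENCODE (chr1:120090190-120102066) the level was 8.29 for naive, 9.11 for erCriz0, 8.04 for erAlec0 and 9.98 for erLor0 cells, with changes of 0.83, -0.24 and 1.70. A peak upstream of it (chr1:120109222-120115447) followed the same order, with changes of 1.01 for erCriz0, -0.30 for erAlec0 and 1.72 for erLor0. Another start, used in RefSeq, lies inside the gene, and the peak over it (chr1:120066335-120070755) was at 6.33, 7.33, 7.36 and 8.93, so that all 3 resistant lines were above naive cells there. In erAlec0, NOTCH2 RNA was therefore higher than in naive cells by 0.56 while its upstream start peak was slightly lower and the inner start peak was higher by 1.03. The peak over the RefSeq start and the upstream peak were chosen after their values were seen.

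NOTCH3 (ENSG00000074181.9, chr19:15159038-15200995), a receptor best known from vascular smooth muscle, split the resistant lines. Its RNA level was 10.27 for naive cells, 9.88 for erCriz0, 11.34 for erAlec0 and 11.38 for erLor0. Levels in erAlec0 and erLor0 were alike and more than 2-fold above naive cells, 2.09-fold and 2.15-fold, whereas erCriz0 was the lowest line at 0.760-fold. RNA of 182 expressed neighbours within 5 Mb changed by medians of -0.11 for erCriz0, 0.11 for erAlec0 and 0.03 for erLor0. Relative to them NOTCH3 was lower by 0.29 in erCriz0 and higher by 0.96 and 1.07 in erAlec0 and erLor0.

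None of the 10 H3K27ac peaks paired with NOTCH3 rose or fell in any line. The main one covers the 5′ part of the gene (chr19:15193743-15200880) and ends 115 bp inside its start. It was at 9.60 for naive, 9.35 for erCriz0, 9.89 for erAlec0 and 9.82 for erLor0 cells. As for the RNA, erCriz0 was lowest and the other 2 resistant lines were above naive cells, but the differences of -0.25, 0.29 and 0.22 were smaller. The largest rise of H3K27ac, 0.90 in erCriz0, was at an upstream peak (chr19:15209699-15211160) that is also paired with EPHX3.

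NOTCH1 (ENSG00000148400.12, chr9:136494433-136546048), the most widely studied receptor, varied less. Its RNA level was 8.69 for naive cells, 9.17 for erCriz0, 9.03 for erAlec0 and 9.04 for erLor0. All 3 resistant lines were above naive cells by 0.34 to 0.48, below the limit. A lncRNA on the opposite strand overlaps NOTCH1, as others do NOTCH2, JAG1 and NRARP. Since the strand setting of the read counting is not given in the sources used here, their reads cannot be told apart from those of these genes.

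At NOTCH1 the RNA was higher and the median of the intronic peaks lower than in naive cells in all 3 resistant lines, most so for the peaks in erAlec0. All 11 intronic peaks were lower than in naive cells in erAlec0, with a median change of -0.98, whereas 48.7% of all peaks were lower in that line. All 5 NOTCH1 peaks that fell in erAlec0 were among these 11. In erCriz0 and erLor0 none of the 11 rose or fell and their median changes were -0.25 and -0.46. The peak with the largest fall (chr9:136528531-136529375) was at 6.23 for naive, 5.58 for erCriz0, 4.77 for erAlec0 and 5.50 for erLor0 cells. The long intronic peak chr9:136536517-136542491, named after its values were seen, was at 9.26, 9.49, 8.14 and 9.13, so that only erAlec0 was more than 1 below naive cells. The peaks next to the start of NOTCH1 went the other way. The one inside the gene, chr9:136544583-136545801, was at 6.04, 6.54, 6.38 and 7.06, with the largest rise of 1.02 in erLor0, and the one 90 bp outside it was higher by 0.39 in erAlec0 and 0.75 in erLor0 and differed by -0.01 in erCriz0. The other 793 peaks within 5 Mb had median changes of 0.21, -0.32 and -0.13 in the 3 lines.

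Among ligands, JAG1 (chr20:10637684-10673999) had the widest range. Its RNA level was 9.36 for naive cells, 9.39 for erCriz0, 10.26 for erAlec0 and 9.71 for erLor0. Highest was erAlec0, with a difference of 0.90 that stayed under the limit, and erCriz0 was within 0.03 of naive cells. The peak over its start (chr20:10670564-10675473) was at 8.76, 8.80, 8.73 and 9.27, so that erAlec0 did not stand out there. An intronic peak (chr20:10659649-10661314) was, like the RNA, highest in erAlec0 and next highest in erLor0. It was at 5.91 for naive, 5.69 for erCriz0, 7.11 for erAlec0 and 6.72 for erLor0 cells, and its change of 1.20 in erAlec0 was the sole rise among 10 JAG1 peaks in any line. A weaker intronic peak, chr20:10640408-10640644, which is also paired with SLX4IP, had the largest fall in value, -0.998 in erAlec0, just short of the limit. Other peaks within 5 Mb had median changes of -0.61 in both erAlec0 and erLor0, whereas those of JAG1 had -0.05 and 0.17.

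JAG2 (chr14:105140982-105168824) was the sole member with less RNA in every resistant line. Its level was 7.53 for naive cells, 6.95 for erCriz0, 7.00 for erAlec0 and 7.27 for erLor0, with differences of -0.57, -0.53 and -0.25 that did not reach the limit. H3K27ac went the opposite way in erCriz0. There 10 of 11 JAG2 peaks exceeded their naive level and 4 of them rose, and their median change was 0.59, against -0.03 for other peaks within 5 Mb. The largest rise was just upstream of the start (chr14:105169623-105174273), at 7.81 for naive, 9.44 for erCriz0, 7.29 for erAlec0 and 7.45 for erLor0 cells. A peak 151 bp before the start rose by 1.27 in erCriz0 and one 619 bp inside the gene by 1.26. All 11 peaks are also paired with the neighbouring gene NUDT14. The largest fall, -0.55 in erAlec0, was at chr14:105184199-105184688.

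DLL1 (chr6:170282206-170306565) was the most weakly expressed member per kb and changed least among the ligands. Its RNA level was 5.70 for naive cells, 5.89 for erCriz0, 5.82 for erAlec0 and 5.83 for erLor0. All differences were below 0.20, and the opposite-strand gene FAM120B overlaps DLL1. The peak over its start changed by 0.26, 0.08 and 0.32. An exonic peak (chr6:170288748-170290981) was at 6.96, 7.63, 7.78 and 8.13, higher in all 3 resistant lines and past the limit in erLor0. A weak peak downstream (chr6:170277722-170278072) was at 3.81, 2.21, 2.72 and 2.83, lower in all 3 and past the limit in erCriz0 and erAlec0.

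**Figure D3:**
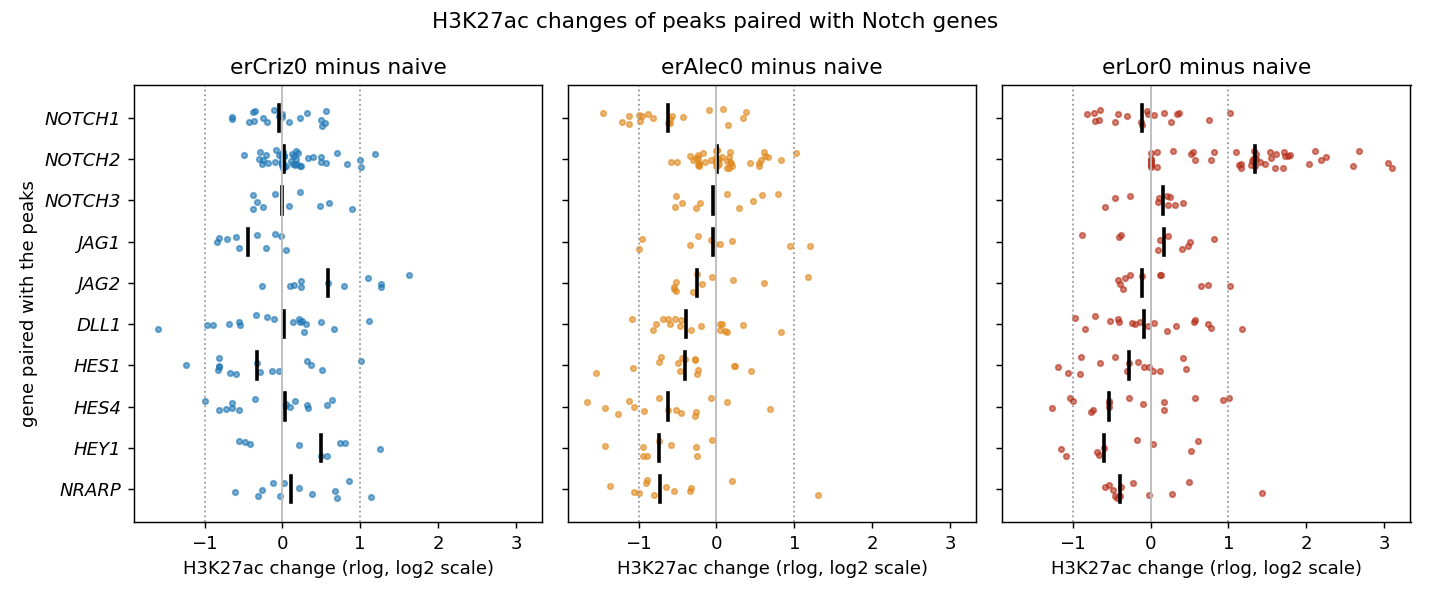
H3K27ac change from naive cells (rlog) of each of the 165 peaks, by the gene it is paired with, in erCriz0, erAlec0 and erLor0; each point is 1 peak, black bars are medians and dotted lines mark changes of 1 and -1. The NOTCH2 peaks of erLor0, with a median of 1.34, stand apart from all other groups, and in erAlec0 the medians of HEY1, NRARP, NOTCH1 and HES4 lie between -0.73 and -0.63.

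Taking all 165 peaks of the 10 members, 10 rose and 2 fell in erCriz0, 4 rose and 16 fell in erAlec0, and 36 rose and 6 fell in erLor0. These are 6.06% and 1.21%, 2.42% and 9.70%, and 21.82% and 3.64%, beside the shares of all peaks given above. Without NOTCH2, 5 of 119 rose and 6 fell in erLor0, and the median change there turned from 0.09 to -0.13. In erAlec0 16 of these 119 peaks fell, or 13.45%, and 3 rose, or 2.52%, with a median change of -0.45. Of the 165 pairs only 36 involve a peak paired with no other gene, so most values are shared with neighbours of the named gene.

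HES1 (chr3:194136148-194138732), which encodes a basic helix-loop-helix repressor and is the most used readout of Notch activity, was nearly level. Its RNA was at 10.16 for naive cells, 10.24 for erCriz0, 10.44 for erAlec0 and 10.41 for erLor0. Naive cells were lowest, but the differences of 0.08, 0.29 and 0.25 were small beside the limit. The peak that covers its start and the promoter shown above (chr3:194134335-194144672) was the strongest peak at HES1 and was at 11.29, 11.80, 11.51 and 11.74. It was thus also lowest in naive cells, with differences of 0.51, 0.22 and 0.45.

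Upstream of HES1 the mark was lower in all resistant lines. All 8 upstream peaks were lower than in naive cells in each of the 3 lines, with median changes of -0.81 for erCriz0, -0.59 for erAlec0 and -0.77 for erLor0, whereas 25.4% of all 126470 peaks were lower in all 3. These 8 peaks were picked out after their values were seen, and the 3 comparisons share the naive library. The most distant (chr3:194115830-194116319) was at 4.81 for naive, 3.57 for erCriz0, 3.26 for erAlec0 and 3.62 for erLor0 cells and fell in every line. The nearest (chr3:194126928-194134152), a long and strong peak named after its values were seen, was at 10.30, 10.01, 10.04 and 9.99, and differed from naive cells by at most 0.31. Downstream, a long peak (chr3:194157372-194169330) rose in erCriz0 alone, from 10.20 to 11.20, and was at 9.93 in erAlec0 and 10.23 in erLor0. The RNA of HES1 was 0.08 higher in erCriz0.

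**Figure D4:**
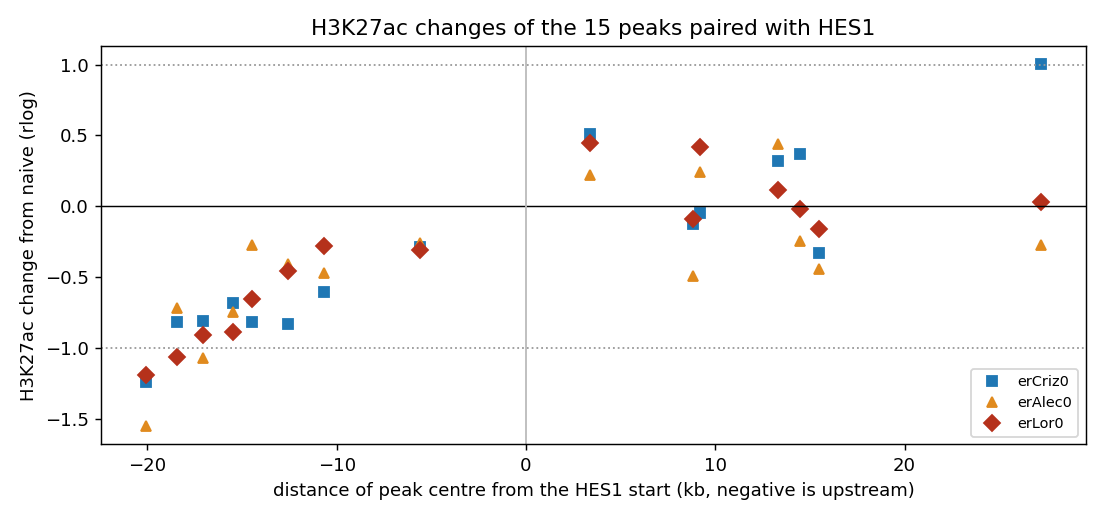
H3K27ac change from naive cells (rlog) of the 15 peaks paired with HES1, by distance of the peak centre from the start of the gene in kb (negative is upstream), for erCriz0, erAlec0 and erLor0; dotted lines mark changes of 1 and -1. All upstream points lie below 0 in the 3 lines and the peak over the start lies above 0.

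HES4 (chr1:998962-1000172), a HES family member whose promoter shares the 12-base run with HES1, varied more than HES1. Its RNA level was 7.67 for naive cells, 7.10 for erCriz0, 8.60 for erAlec0 and 8.13 for erLor0. This order of lines was nearly that of NOTCH3, lowest in erCriz0 and above naive cells in erAlec0 and erLor0, with differences of -0.56, 0.94 and 0.46. The peak over its start (chr1:998922-1002112) was at 8.41, 9.05, 9.09 and 9.33, higher in all 3 resistant lines, and so opposite to the RNA in erCriz0. This peak is paired with 7 genes, among them ISG15 and AGRN.

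Upstream of HES4 the mark was lower in erAlec0, in which 9 of 10 upstream peaks were below naive cells and 4 fell. Of all peaks 48.7% were lower and 9.41% fell in that line. All 10 upstream peaks are also paired with ISG15 and AGRN, so the change cannot be assigned to HES4. The largest fall (chr1:1008006-1009500) was at 6.41 for naive, 5.60 for erCriz0, 4.75 for erAlec0 and 5.15 for erLor0 cells. The largest rise, 1.01 in erLor0, was at a weak downstream peak (chr1:998340-998674). Over all 15 HES4 peaks the median changes were 0.04, -0.63 and -0.53, against 0.00, -0.39 and 0.04 for other peaks within 5 Mb.

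HEY1 (chr8:79764010-79767857), a related repressor, had RNA levels of 6.60 for naive cells, 6.22 for erCriz0, 6.75 for erAlec0 and 6.42 for erLor0. Its H3K27ac values did not follow this order. The peak over its start (chr8:79766093-79767947) was at 6.93, 7.67, 6.20 and 6.96, highest in erCriz0, where the RNA was lowest, and lowest in erAlec0, where the RNA was highest. An adjacent upstream peak (chr8:79768370-79770598) rose by 1.25 in erCriz0. All 9 peaks were lower than in naive cells in erAlec0, and the largest fall (chr8:79738781-79745107) was from 8.64 to 7.21 there and to 7.55 in erLor0, while erCriz0 was at 9.13.

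NRARP (chr9:137299631-137302271), which encodes an ankyrin repeat protein that limits Notch signalling, had RNA levels of 7.40 for naive cells, 7.57 for erCriz0, 7.52 for erAlec0 and 7.41 for erLor0. This was the narrowest range of the 10 genes, 0.17. Of its 12 peaks 10 were lower than in naive cells in erAlec0, with a median change of -0.73, against -0.37 for other peaks within 5 Mb. The strong peak 336 bp before its start (chr9:137302607-137307896, named after its values were seen) was at 9.15 for naive, 10.00 for erCriz0, 8.25 for erAlec0 and 8.77 for erLor0 cells, a spread not seen in the RNA of NRARP. All 12 peaks are also paired with other coding genes, this one with EXD3 and TOR4A. A weak upstream peak (chr9:137316286-137316921) rose in all 3 lines, by 1.13, 1.31 and 1.43, and the largest fall, -1.36 in erAlec0, was at chr9:137278895-137280927.

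A peak lay over a GENCODE transcript start for 6 of the 10 genes, and at the gene start of NOTCH1, NOTCH3, JAG2 and NRARP the nearest peaks lay 90 to 619 bp away on either side. For the 6 genes the start peak and the RNA changed in the same direction in 4 cases in erCriz0, 3 in erAlec0 and 5 in erLor0. Over 11642 expressed genes with such a peak these shares were 51.80%, 51.24% and 50.79%.

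The rest of the pathway was examined through a list of 79 further genes, of which 60 were expressed. Of these, 2 rose and 2 fell in erCriz0, or 3.33% each beside 2.65% and 1.65% of all expressed genes. In erAlec0 3 of 60 rose, beside 2.46% of all expressed genes, and none fell, and in erLor0 none rose or fell, beside 1.10% and 0.740%, with median changes of -0.05, 0.14 and 0.08.

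Of the 3 expressed genes among other receptors and ligands, none passed the limit. The ligand DLL4 was at 7.46 for naive, 7.26 for erCriz0, 7.83 for erAlec0 and 7.26 for erLor0 cells, and the receptor NOTCH4 was not expressed. None of the 8 expressed genes of receptor cleavage, which include ADAM10 and the γ-secretase subunits, passed it either. All 4 expressed genes of receptor glycosylation were lower in erCriz0, with a median of -0.47 and no call. Among them LFNG, which encodes a Fringe enzyme that modifies the receptors' response to ligands, was at 8.47, 7.55, 8.17 and 8.15.

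Of the 22 expressed nuclear genes, 1 rose in erCriz0, 3 rose in erAlec0 and none fell in any line. RBPJ was within 0.23 of naive cells in every line. MAML2, a Mastermind-like coactivator, was at 6.98 for naive, 8.26 for erCriz0, 7.70 for erAlec0 and 7.00 for erLor0 cells. The corepressors TLE1 and TLE2 were highest in erAlec0, with TLE1 at 7.80, 7.76, 8.88 and 8.20 and TLE2 at 6.07, 6.40, 7.25 and 6.98. NCOR1, also a corepressor, rose in erAlec0 alone, from 12.20 to 13.64. Its 75 expressed neighbours within 5 Mb had a median change of 0.86 in that line. Among genes of trafficking and turnover, DTX3L, a ubiquitin ligase, was at 10.42, 11.45, 10.50 and 10.24 and so rose in erCriz0.

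Of 10 expressed genes among other targets and the HES family, 8 were lower than in naive cells in erCriz0. Their median change was -0.43, against -0.02 over all expressed genes. The HES and HEY genes among them were split in erCriz0, with HES2 and HES7 higher and HES6 and HEYL lower. ID2 and ID3, which encode inhibitors of helix-loop-helix factors, fell there. ID2 was at 6.21 for naive, 4.99 for erCriz0, 5.60 for erAlec0 and 5.82 for erLor0 cells. ID3 was at 6.39, 5.09, 6.41 and 6.52. MYC and CCND1, Notch targets in some cancers, did not pass the limit in any line, with MYC at 11.68, 11.17, 11.68 and 11.80 and CCND1 at 15.32, 15.16, 15.34 and 15.34.

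The genes with the RNA profile most like each of the 3 widest-ranging members were found by the Euclidean distance between profiles over the 4 lines, each centred on its own mean. With 4 points each, such likeness is only a description. Nearest to NOTCH2 were NBPF8 (distance 0.30), CD44 (0.36) and BCAS2 (0.40), of which NBPF8 and BCAS2 also lie on chromosome 1. In erLor0, in which the stretch around NOTCH2 rose, NBPF8 and BCAS2 rose by 1.58 and 1.49. Their likeness to NOTCH2 was not separated from that regional rise. CD44, the hyaluronan receptor, was at 10.25 for naive, 11.57 for erCriz0, 10.88 for erAlec0 and 11.76 for erLor0 cells. Nearest to NOTCH3 were BHLHA15 (0.12), ALKBH5 (0.16) and PDGFB (0.18). Nearest to HES4 were BCL9L (0.10), PEMT (0.13) and ATF5 (0.13), and BCL9L was at 11.44, 10.76, 12.31 and 11.78. ALKBH5 and PEMT both lie on chromosome 17, as does NCOR1, described above.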

How the data were processed

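RNA-seq and H3K27ac ChIP-seq of 4 lines were used, with 1 library of each per line. The authors deposited 1 table of rlog values on a log2 scale, made with the DESeq2 rlog function, in which each row pairs a peak with a gene at most 20 kb away. For RNA they ran HISAT2 on hg38 and HTSeq-count, and for ChIP-seq BWA, a mapping quality minimum of 25, MACS2 at q = 0.05, merging of peaks across samples and featureCounts. Their tool versions are not given in the sources used here. Rlog shrinks differences of features with few reads toward 0 and hides read totals, so depth is unknown and no counting error can be given. The table's correlations between peak and RNA, with their p-values, are the authors' own comparisons and were not used. No column of values was left unmapped (0).

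Changes are rlog of a resistant line minus rlog of naive cells, called at 1 or -1. Exon lengths and peak places came from GENCODE release 44, and promoters from RefSeq. The members, the gene lists and the rule for named features were chosen with earlier results of these data known. Named were all 10 members, for each the highest peak over a transcript start and its most risen and most fallen peak, every other pathway gene past the limit, and the 3 nearest profiles of the 3 widest-ranging members. The most fallen peak of NOTCH3 is not reported here. Other features named were chosen after their values were seen, among them DLL4, LFNG, NOTCH4, RBPJ, MYC and CCND1. Alternatives were other limits, centring, quantile normalization, low-peak filters, pairing distances and windows. The calculations were tested on simulated data. Python 3.11.15, numpy 2.4.6, pandas 2.3.3 and matplotlib 3.10.9 were used.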

Additional observations from a re-analysis of the deposited data

Results flagged for a closer look

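NOTCH3 RNA differed in direction between the resistant lines, with changes from naive cells of -0.40 for erCriz0, 1.07 for erAlec0 and 1.10 for erLor0. With 1 library per line this difference was not tested.

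HES4 RNA also differed in direction, with -0.56 for erCriz0, 0.94 for erAlec0 and 0.46 for erLor0, and the difference was not tested.

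The median change of the peaks paired with HEY1 came to 0.49 for erCriz0, -0.73 for erAlec0 and -0.60 for erLor0, a difference in direction that was not tested either.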

How the results depend on the processing

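No paired analysis was possible because each line has 1 library and the digit in its name marks a line, not a replicate. For the same reason no library could be left out, and the depth behind a value is unknown. Of 201 values under other settings 142 stayed close to the reported one and 59 moved. Some medians of peak changes also changed sign. The erLor0 median over the members' peaks went from 0.09 to -0.13 without the peaks paired with NOTCH2. The NOTCH2 peaks of erLor0 relative to other peaks went from -0.05 to 0.22 in a window of 2 Mb. No RNA change of a member moved by more than 0.10 or changed sign.

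At an RNA limit of log2 of 1.5, 3 members rose in erAlec0, and of the other pathway genes 9 fell in erCriz0, 9 rose and 3 fell in erAlec0, and 2 rose and 1 fell in erLor0. At an RNA limit of 2, 0 members rose in any line and 0 other pathway genes rose or fell in erCriz0 or rose in erAlec0. Shares of all expressed genes at these limits are not reported here. These counts therefore show only how the calls depend on the limit. With quantile normalization of genes, 0 members and 1 other pathway gene rose in erCriz0, since NOTCH2 lies just past the limit there.

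For the peaks of the members, a limit of log2 of 1.5 gave 24 up and 23 down in erCriz0, 13 up and 46 down in erAlec0 and 25 down in erLor0, whereas a limit of 2 left 0 in either direction in erCriz0 and erAlec0 and 8 up and 0 down in erLor0, all 8 at NOTCH2. Shares of all peaks at these limits are not reported here either, so the counts cannot be read as more or fewer than usual. Libraries centred on peaks gave 3 down and a median of 0.19 in erLor0, and quantile normalization of peaks gave 6 up and 4 down in erCriz0. Keeping peaks past log2 of 15 reads gave 1 down and a median of 0.13 in erCriz0 and 21 up in erLor0. Peaks within 5 kb gave 6 up and 1 down in erCriz0, 2 up, 8 down and a median of -0.11 in erAlec0, and 1 down and a median of 0.33 in erLor0. Peaks paired with no other gene gave 0 up and 0 down in erCriz0 and erAlec0, a median of 0.0036 in erAlec0, and 0 down and a median of 1.31 in erLor0. The median over members of their medians was -0.40 in erAlec0 and -0.10 in erLor0. Without the peaks paired with NOTCH2, an alternative chosen after seeing the data, the median was -0.45 in erAlec0, and 5 peaks rose with a median of -0.13 in erLor0.

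NOTCH2 RNA relative to other genes was 0.82 in erCriz0 and 0.85 in erLor0 in a window of 2 Mb, and 1.06 in erLor0 in a window of 10 Mb. NOTCH2 peaks relative to other peaks were at 0.22 and 0.063 in erLor0 in these windows. With peaks past log2 of 15 reads only, also chosen after seeing the data, they were at 0.30 for erCriz0, 0.14 for erAlec0 and 0.29 for erLor0, but 6 of the 16 NOTCH2 peaks kept passed that minimum in erLor0 alone. What caused these moves was not tested.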
